A study of Mus musculus with 10 samples.

Results

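Cish, the SOCS genes and the STAT genes that they feed back on were followed in gastrocnemius, a large calf muscle, of young and aged mice. The 10 genes were Cish, Socs1, Socs2, Socs3, Socs4, Socs5, Socs7, Stat3, Stat5a and Stat5b, out of 37947 gene symbols in the deposited table. They hold 51 of the table's 92251 transcript rows, and each gene was read at the row selected on the highest mean over all 10 libraries, so a gene's level is given by a row that these same values chose. The young group held 5 male C57BL/6 mice of 6 months and the aged group 5 of 24 months, with 1 library of poly-A RNA for each mouse. The labels and the methods name no treatment and no engineered allele for either age. The mice were bought from a breeding center, so age cannot be told apart from the cohort in which a mouse was raised. Values are log2 FPKM, where FPKM is the number of fragments scaled to transcript length and library size. The table gives 0 for anything below 1 FPKM, and a 0 therefore stands for an unknown level up to 1 FPKM.

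Cytokines and growth hormone act through receptors that carry Janus kinases (JAKs). The kinases phosphorylate STAT proteins, which pair, enter the nucleus and bind a palindrome written TTCNNNGAA. CISH and the SOCS proteins are the brakes of this pathway. Several of them are made from genes that the STATs themselves switch on, and they block the kinase or receptor or hand it to a ubiquitin ligase through their SOCS box. In muscle, growth hormone works largely through STAT5B, and cytokines of the interleukin-6 family work through STAT3.

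The TTCNNNGAA palindrome was looked for in the promoters of the 10 genes. RefSeq promoter windows (GRCm38.p6, 250 bases before to 50 after the start) matched 7 of them, in 9 windows, and Socs2, Socs5 and Socs7 had no window in the table. Only Cish and Socs3, of the 7 genes, held the palindrome, and their promoters are printed 5′ to 3′ up to 30 bases after the start because they carry the sequence by which STATs recognize DNA. Capitals mark each palindrome.
Cish promoter, chr9:107296409-107296688, plus strand: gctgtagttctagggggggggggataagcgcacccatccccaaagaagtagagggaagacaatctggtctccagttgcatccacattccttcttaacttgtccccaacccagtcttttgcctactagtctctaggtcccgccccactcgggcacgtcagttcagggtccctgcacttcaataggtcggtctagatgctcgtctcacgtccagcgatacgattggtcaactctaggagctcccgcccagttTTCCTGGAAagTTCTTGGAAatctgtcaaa
Socs3 promoter, chr11:117969337-117969616, minus strand: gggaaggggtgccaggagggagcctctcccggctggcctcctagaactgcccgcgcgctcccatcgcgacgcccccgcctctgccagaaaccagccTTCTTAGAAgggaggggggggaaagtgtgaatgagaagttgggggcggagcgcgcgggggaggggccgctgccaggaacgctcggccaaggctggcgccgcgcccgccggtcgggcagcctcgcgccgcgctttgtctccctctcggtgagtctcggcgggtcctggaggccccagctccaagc
Cish has 2 copies, TTCCTGGAA at base 251, which is the annotated start itself, and TTCTTGGAA at base 262, with 2 bases between them. Socs3 has 1 copy, TTCTTAGAA at base 97 of the stretch. The Cish start used here is the RefSeq one, at 107296659. The GENCODE transcripts matched to the Cish rows described below, Cish-001 and Cish-005, start at 107296026 and 107296912. Of all 32851 mouse windows of 300 bases, 8.30% hold at least 1 palindrome and 0.457% hold 2 or more. The palindrome reads the same class of sequence on both strands, and a match in a window is a description of the letters and not of binding. The windows of Socs1, Socs4, Stat3, Stat5a and Stat5b have no match in these 300 bases.

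Depths recovered from the steps between values ran from 19886360 to 34554353 reads per library, and the tissue was checked with 8 markers of muscle fibers, whose summed FPKM was 90345 to 108063 in young and 82314 to 98004 in aged libraries. Aged library 3 had the fewest rows above 0 (29878) and aged library 4 the most (43296). Rows under 1000 bases of 6 of the genes described here (22 rows) were compared with the longest protein-coding row of their gene, and aged library 3 held a lower difference than the 8 libraries of other numbers for 21 of the 22. Young library 3 did so for 16 of them. Stat5b-003, for example, was listed at 0 in aged library 3, 1.79 in young library 3 and 4.31 to 5.55 in the others, whereas the long Stat5b-002 row was 4.39 and 4.91 in libraries 3. Differences without the libraries numbered 3 are therefore given beside the genes described. Sums of the markers of other tissues varied widely within both ages, at 20.4 to 229 FPKM for Schwann cells (highest in aged library 1), 15.1 to 120 FPKM for adipocytes (highest in young library 3) and 142 to 610 FPKM for erythroid cells (highest in aged library 4). In bulk tissue, more cells of a type and more RNA per cell cannot be told apart.

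Markers of macrophages moved with age as well. Of 9 macrophage markers in the table, 5 could be tested and 3 rose at an unadjusted limma p under 0.05 (Cd68, C1qb and C1qc), where 6.05% of all genes tested did, and their summed FPKM was 8.12 to 25.5 in young and 17.2 to 104 in aged libraries. The sums of aged libraries 3 and 4 were 104 and 86.3. Lymphocyte markers were at 0 in all young libraries and above 0 in aged libraries 3 and 4 (2.66 and 14.4 summed FPKM), with Cd3e at 0 in all. Neutrophil markers were above 0 in the same pair (6.31 and 1.35), with Ly6g, Mpo and Camp at 0 in all. Of 10 early stress genes, 5 rose in the aged libraries (Fos, Junb, Ier2, Ier3 and Btg2), with sums of 110 to 210 in young and 150 to 246 in aged libraries. Of 4 satellite cell markers, Pax7, Myf5 and Calcr were listed at 0 in all 10 libraries, while Cdh15 was at 3.83 to 5.75 FPKM in young and 4.07 to 5.15 FPKM in aged libraries and did not pass. The part of these markers in the results that follow was not tested.

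Of the 10 genes, 9 had a mean FPKM of at least 1 and were fitted with limma among 38059 rows. Socs1 and Socs3 were listed at 0 in every young library and met that filter through the aged libraries alone, so they could only be higher, and their values are given as a description with no test. Of the 7 genes above 0 in all libraries, 2 rose with age at an unadjusted limma p under 0.05 (Socs2 and Stat3) and 0 fell, where 5.84% of the 8216 genes above 0 in all libraries rose and 0.864% fell. Under quantile normalization 0 of the 7 passed and under median ratio scaling 1 did (Socs2), and the split over all 10161 genes tested moved from 6.05% higher and 0.876% lower to 3.08% and 1.90% or 4.10% and 1.55%. With same-numbered young and aged libraries taken as pairs, Cish joined them, which made 3 of 7 against 9.29%. Counted with Socs1 and Socs3, limma put 4 of 9 under the threshold and 5 of 9 with the pairs, where 6.05% and 9.50% of all 10161 genes tested rose, and nothing is read from those counts. After Benjamini-Hochberg adjustment over all rows 0 of the 9 passed by limma, and 0.00984% of all genes (1 gene) did. Every aged library lay above every young library for 0 of the 7 genes, against 2.12% of the genes above 0 in all libraries, and below for 0 of the 7, against 0.353%.

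**Figure D1:**
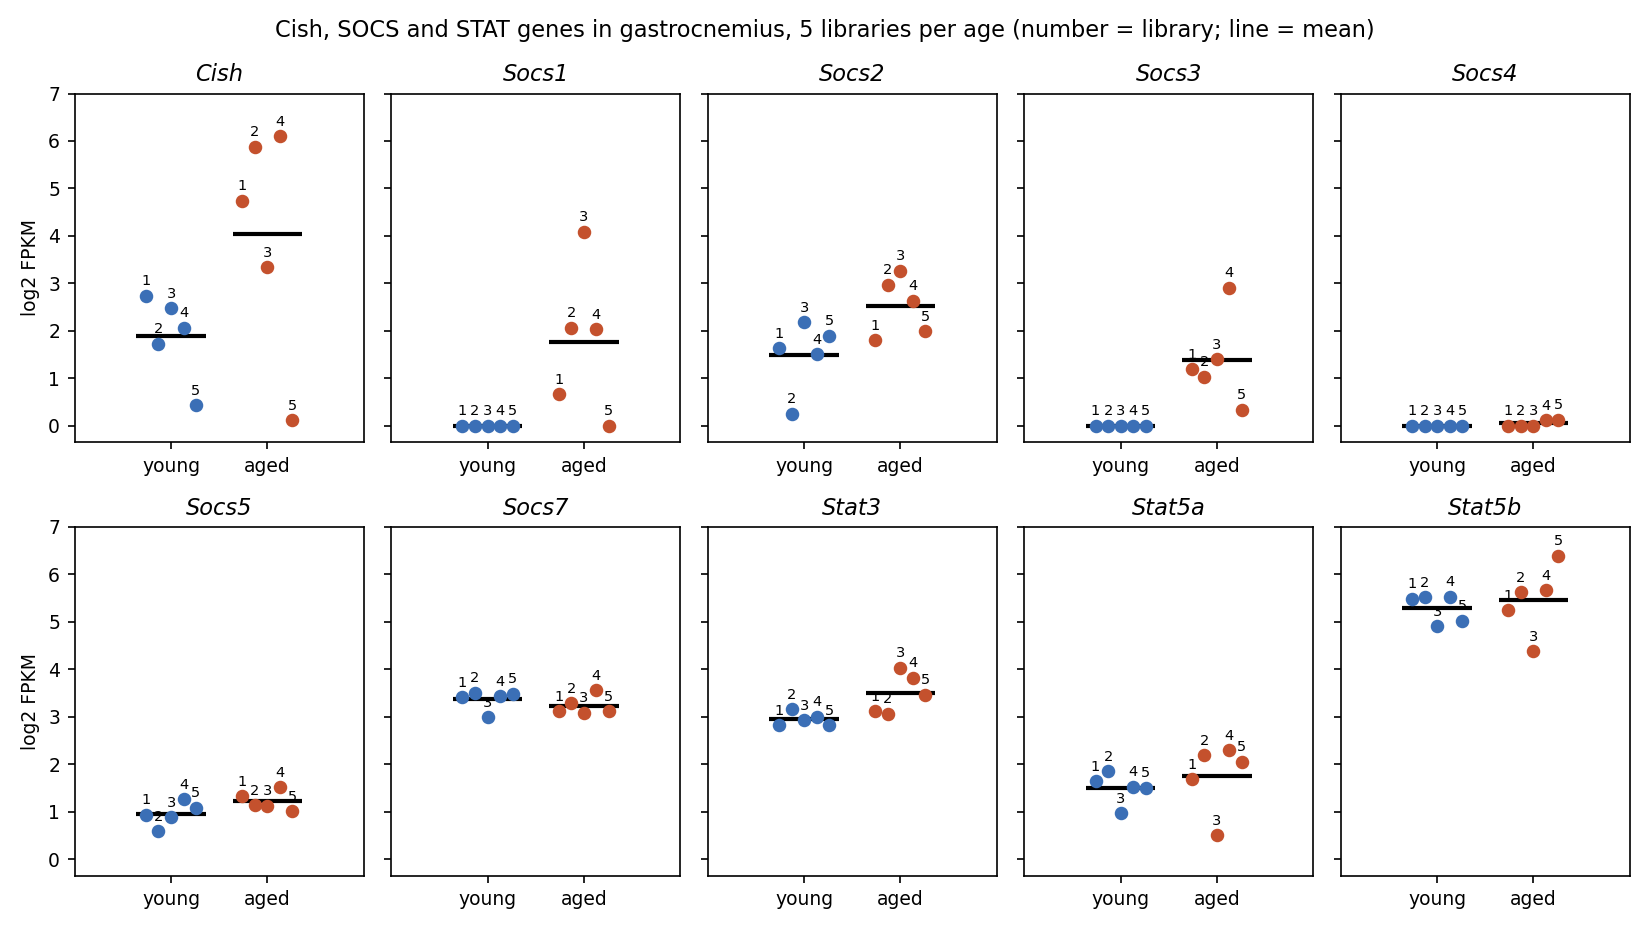
Log2 FPKM of the 10 genes in 5 young (blue) and 5 aged (red) libraries, with the library number above each point and a line at the group mean. Cish ran from 0.12 to 6.10 in the aged libraries, Socs1 and Socs3 lay at 0 in every young library, and Socs7 stayed between 2.99 and 3.55.

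Levels were ordered by the group mean, on a scale corrected for transcript length. Stat5b was the highest at both ages, while Cish moved from place 4 in young to place 2 in aged muscle and Socs7 from 2 to 4. The places of Cish hold for its row of highest mean, Cish-005. In Cish-001, its longest protein-coding row, the young mean was 0.79, below Socs5 (0.95). The aged mean of that row was 3.496, just below Stat3 (3.500). In young muscle the range of Stat5b (30.1 to 46.3 FPKM) did not meet that of Socs7 (7.93 to 11.4 FPKM). Socs7 and Stat3 (7.06 to 8.90 FPKM) overlapped. Cish, Stat5a and Socs2 followed with overlapping ranges, and Socs5 overlapped Socs2 while lying above the 3 genes listed at 0, Socs1, Socs3 and Socs4. In aged muscle the range of Cish (1.08 to 68.8 FPKM) reached from below that of Socs5 to that of Stat5b (20.9 to 84.0 FPKM), and the only neighbors in the order whose ranges did not meet were Socs5 and Socs4.

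Cish encodes the first described member of the family, an SH2 protein that damps signaling by growth hormone, prolactin and interleukin-2 and that STAT5 induces. The gene lies on chromosome 9 from 107296659 to 107302784 (GRCm38). Cish-005, the row of highest mean (411 bases), read 2.74, 1.73, 2.48, 2.06 and 0.43 in the young group (numbers 1 to 5) and 4.74, 5.88, 3.34, 6.10 and 0.12 in the aged group (numbers 1 to 5). Aged libraries 1 to 4 lay above every young library, whereas aged library 5 lay below every young library, and young library 5 was the lowest of its group. These values rest on 9 to 750 reads, the fewest being 9 for aged and 11 for young library 5. The means were 1.89 ± 0.90 in young and 4.04 ± 2.45 in aged libraries (SD, n = 5 each), an aged minus young difference of 2.15 (limma SE 1.03), or 4.44-fold. The SD within the aged group was larger than the difference. The difference missed the threshold (limma p = 0.063, adjusted p = 1.00; exact permutation p = 0.103). Within same-numbered pairs, Cish was higher in the aged library in 4 of 5, by 2.01, 4.15, 0.86 and 4.04, and lower in pair 5, and limma with the pairs put Cish under the unadjusted threshold (adjusted p = 0.562). It was under it as well without aged library 5, with a difference of 3.13 (limma adjusted p = 0.455), and not without the libraries numbered 3, with 2.47. Leaving out both libraries numbered 5 (2.77), a choice made after seeing the data, also put Cish under the unadjusted threshold. So did log2 of FPKM plus 1. Of all genes tested, 4.24% and 5.40% rose under these settings.

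The 5 Cish rows did not give the same picture of aged library 3. Cish-001, the longest protein-coding row (2850 bases), read 1.23, 0.57, 1.54, 0.58 and 0 in the young group and 3.49, 4.58, 4.78, 4.63 and 0 in the aged group, in order of library number. In this row, aged library 3 was the highest of all, while in Cish-005 it was the lowest of the 4 aged libraries that exceeded the young ones. Cish-005 exceeded Cish-001 by 1.26, 1.29 and 1.47 in aged libraries 1, 2 and 4. In aged library 3 the difference was -1.44. The read numbers were 2485 for Cish-001 and 132 for Cish-005 in aged library 3, against 1875 and 750 in aged library 4. All 5 rows were at most 0.43 in young library 5 and at most 0.12 in aged library 5. Aged minus young was 2.71 for Cish-001 (limma SE 0.837, p = 0.00854, adjusted p = 0.955; exact permutation p = 0.0476). Of the 5 rows, 3 rose at an unadjusted limma p under 0.05 and 5 did with the pairs. The 3, Cish-001, Cish-002 and Cish-003, had similar read numbers (2485, 2432 and 2490 in aged library 3). They are not separate measurements. Without aged library 5, Cish-001, Cish-002 and Cish-003 passed the adjustment (limma adjusted p = 0.0257 each), with differences of 3.58, 3.60 and 3.42, but that library was singled out for its low Cish. The rows did not pass without both libraries numbered 5 (limma adjusted p = 0.129 each) or without both numbered 3, where Cish-001 differed by 2.58 (limma adjusted p = 0.318).

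**Figure D2:**
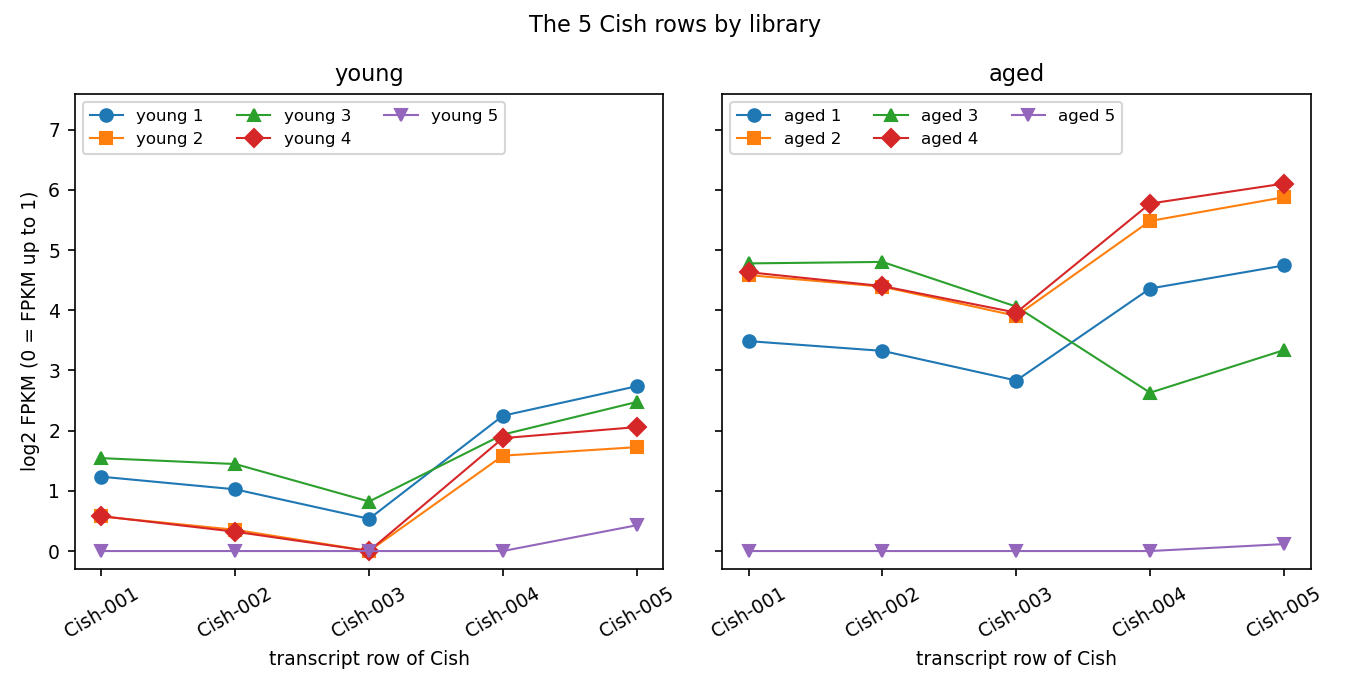
Log2 FPKM of the 5 transcript rows of Cish in each young (left) and aged (right) library, 1 line per library. Lines rise from Cish-003 to Cish-005 in most libraries, fall in aged library 3 between Cish-003 (4.06) and Cish-004 (2.63), and lie near 0 in young and aged library 5.

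An antisense gene shares the Cish locus. Gm17041 is annotated on the minus strand of chromosome 9 from 107300380 to 107301838 (GRCm38, GENCODE), and all 479 of its exon bases fall within exons of Cish. Its row read 2.41, 1.71, 2.72, 1.68 and 0.21 in the young and 4.77, 5.86, 6.02, 5.89 and 0.43 in the aged group, with aged library 3 the highest of all and both libraries numbered 5 the lowest of their ages, as in Cish-001. The library kit does not mark strand, so reads of Gm17041 and of Cish cannot be told apart.

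Socs1, a potent inhibitor of JAK kinases downstream of interferons, is on chromosome 16 from 10783808 to 10785536. The young libraries all had 0 for it, and the aged values were 0.66, 2.06, 4.09 and 2.03 for numbers 1 to 4 and 0 for number 5. The highest value belonged to aged library 3 and the lowest to aged library 5. The difference of the listed values was 1.77 with all libraries and 1.19 without the libraries numbered 3, and 4 of 5 aged libraries were above 0.

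Socs3, the inhibitor that binds gp130 and limits interleukin-6 and leptin signaling, is on chromosome 11 from 117966079 to 117970336. All young libraries were listed at 0, while the aged ones stood at 1.19, 1.03, 1.40, 2.91 and 0.33 in order of number. As listed the groups did not overlap, where 2.08% of all genes tested had every aged library above every young one. With every young value at the floor, any aged value above it gives this, so nothing is read from it. The highest was aged library 4 and the lowest aged library 5, at 1.26 FPKM. The aged values rest on 65 to 509 reads of Socs3-001. The difference of the listed values was 1.37, and 1.37 without the libraries numbered 3 as well. A shorter row, Socs3-003, was likewise 0 throughout the young group and 1.70, 0.69, 0, 3.44 and 0.86 in the aged group.

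Socs2, which tempers growth hormone signaling and whose loss gives large mice, is on chromosome 10 from 95383903 to 95417321. Socs2-001 read 1.62, 0.25, 2.18, 1.51 and 1.89 in the young and 1.80, 2.97, 3.26, 2.63 and 1.99 in the aged group. The groups overlapped, with 3 of 5 aged libraries above every young library and young library 2 far below the rest. It rose from 1.49 ± 0.74 to 2.53 ± 0.62 (SD, n = 5 each), a difference of 1.04 (limma SE 0.398, p = 0.0253, adjusted p = 1.00; exact permutation p = 0.0476), or 2.06-fold, and was higher in the aged library in 5 of 5 pairs. The call was lost without young library 2 (difference 0.73), aged library 2 (0.93) or aged library 3 (0.86), and under quantile normalization (0.96). It was kept without both libraries numbered 3 (1.03), where 13.5% of all genes tested rose. Of the 12 Socs2 rows tested 3 rose, and all 12 differences were above 0. The 3, Socs2-001, Socs2-201 and Socs2-202, had nearly the same read numbers (677, 676 and 676 in aged library 3). They are not separate measurements.

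The other SOCS genes showed no difference that passed. Socs4 (chromosome 14 from 47276920 to 47296102) had 0 in 8 libraries and 0.12 in aged libraries 4 and 5, and was too low to test. Socs5, which acts on interleukin-4 and EGF receptor signaling (chromosome 17 from 87107278 to 87137647), was at 0.59 to 1.26 in young and 1.00 to 1.51 in aged libraries, a difference of 0.27 (limma SE 0.171, p = 0.141; exact permutation p = 0.111) and of 0.28 without the libraries numbered 3. Socs7 (chromosome 11 from 97362292 to 97398542) held the narrowest range of the genes above 1 on this scale, with 2.99 to 3.51 in young and 3.09 to 3.55 in aged libraries, and differed by -0.13 (limma SE 0.163, p = 0.432; exact permutation p = 0.349), or -0.19 without the libraries numbered 3. Socs6, the remaining family member and not one of the 10, was at 2.34 ± 0.45 in young and 2.25 ± 1.04 in aged libraries (SD, n = 5 each; limma p = 0.849; exact permutation p = 0.841), with 0.49 in aged library 3. Its difference of -0.090 turned to 0.16 without the libraries numbered 3 and to 0.35 without aged library 3 alone.

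Stat3, Stat5a and Stat5b lie side by side on chromosome 11. Stat5b spans 100780731 to 100859004, Stat5a begins 346 bases further on and spans 100859351 to 100885169, and Stat3, after a gap of 1636 bases, spans 100886806 to 100939594. Stat5a and Stat5b are paralogs, and 8.21% of the 50-base windows in Stat5a transcripts occur letter for letter in Stat5b transcripts (608 of 7407; GENCODE). How reads from such windows were shared between the genes is not given in the sources used here.

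Stat3, the transcription factor of interleukin-6 family cytokines, rose with age. Stat3-001 read 2.82, 3.15, 2.93, 3.00 and 2.82 in the young and 3.12, 3.06, 4.03, 3.82 and 3.46 in the aged group. Aged libraries 3, 4 and 5 were above every young library, and aged libraries 1 and 2 were within the young range. The means were 2.95 ± 0.14 and 3.50 ± 0.43 (SD, n = 5 each), a difference of 0.55 (limma SE 0.210, p = 0.0243, adjusted p = 1.00; exact permutation p = 0.0238), or 1.47-fold. The values rest on 634 to 2346 reads. Stat3-002, a second long row, gave 0.56 (limma p = 0.0239; exact permutation p = 0.0238). Its read numbers were nearly the same (635 to 2351), so it is not a separate measurement. Stat3-010, the row of second-highest mean, read only 1.10 for aged library 3 and gave 0.07 (limma p = 0.883; exact permutation p = 0.905). Of the 13 Stat3 rows tested, 2 rose and 11 had a difference above 0. Without the libraries numbered 3, Stat3-001 differed by 0.42 and kept its call, where 13.5% of all genes tested rose. The call was lost without young library 1 (0.52), young library 5 (0.52), aged library 4 (0.47) or both libraries numbered 5 (0.53), and under quantile normalization (0.49) and median ratio scaling (0.51).

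The 3 aged libraries with the most Stat3 were also those with the highest macrophage marker sums, at 104, 86.3 and 30.4 summed FPKM in aged libraries 3, 4 and 5, against 21.1 and 17.2 in aged libraries 1 and 2. Erythroid marker sums were also higher in these 3 than in the other two aged libraries, at 606, 610 and 257 FPKM in aged libraries 3, 4 and 5 and 151 and 190 in aged libraries 1 and 2, while the young libraries were at 142 to 327. Among the young libraries, the highest Stat3 (3.15) and the highest sum (25.5) were both in library 2. For Cish the picture depended on the row. In Cish-005 aged library 2, with the lowest sum of the aged group, stood at 5.88 and aged library 3 at 3.34, whereas in Cish-001 aged libraries 3 and 4 were the highest at 4.78 and 4.63, with aged library 2 next at 4.58. Both rows were lowest in aged library 5 (0.12 and 0).

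**Figure D3:**
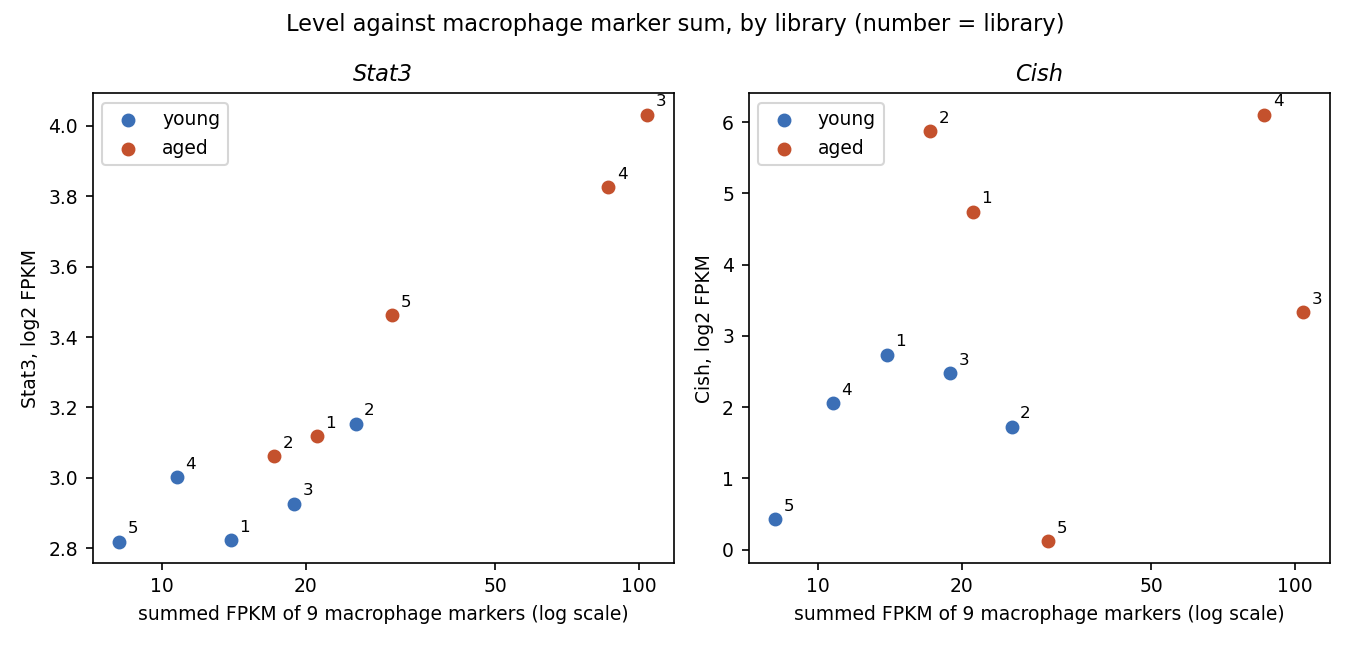
Log2 FPKM of Stat3 (left) and Cish, row Cish-005 (right), against the summed FPKM of 9 macrophage markers (log axis), 1 point per library, numbered, young in blue and aged in red. Stat3 was highest in aged libraries 3 and 4, whose sums were 104 and 86.3, while the highest Cish-005 values, 5.88 and 6.10, came with sums of 17.2 and 86.3. In the longer row Cish-001, which is not drawn, the highest value (4.78) was in aged library 3.

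Stat5b and Stat5a, the transcription factors of growth hormone and prolactin signaling, showed no difference that passed with all libraries. Stat5b-002 read 5.49, 5.51, 4.91, 5.53 and 5.02 in the young and 5.25, 5.63, 4.39, 5.67 and 6.39 in the aged group. Aged library 5, the lowest for Cish, held the highest Stat5b value, and libraries 3 were the lowest of their ages. The difference was 0.17 (limma SE 0.332, p = 0.618; exact permutation p = 0.667) and turned to -0.062 without aged library 5, or 0.34 without the libraries numbered 3. Stat5a-201 read 1.64, 1.85, 0.96, 1.52 and 1.50 in the young and 1.69, 2.19, 0.51, 2.30 and 2.06 in the aged group, a difference of 0.25 (limma SE 0.335, p = 0.466; exact permutation p = 0.5). Libraries 3 were again the lowest of both ages. Without them the Stat5a difference was 0.43 and passed the unadjusted threshold (limma adjusted p = 0.322), as did the 0.56 without aged library 3 alone. Under these settings 13.5% and 12.5% of all genes tested rose, against 6.05% with all libraries.

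**Figure D4:**
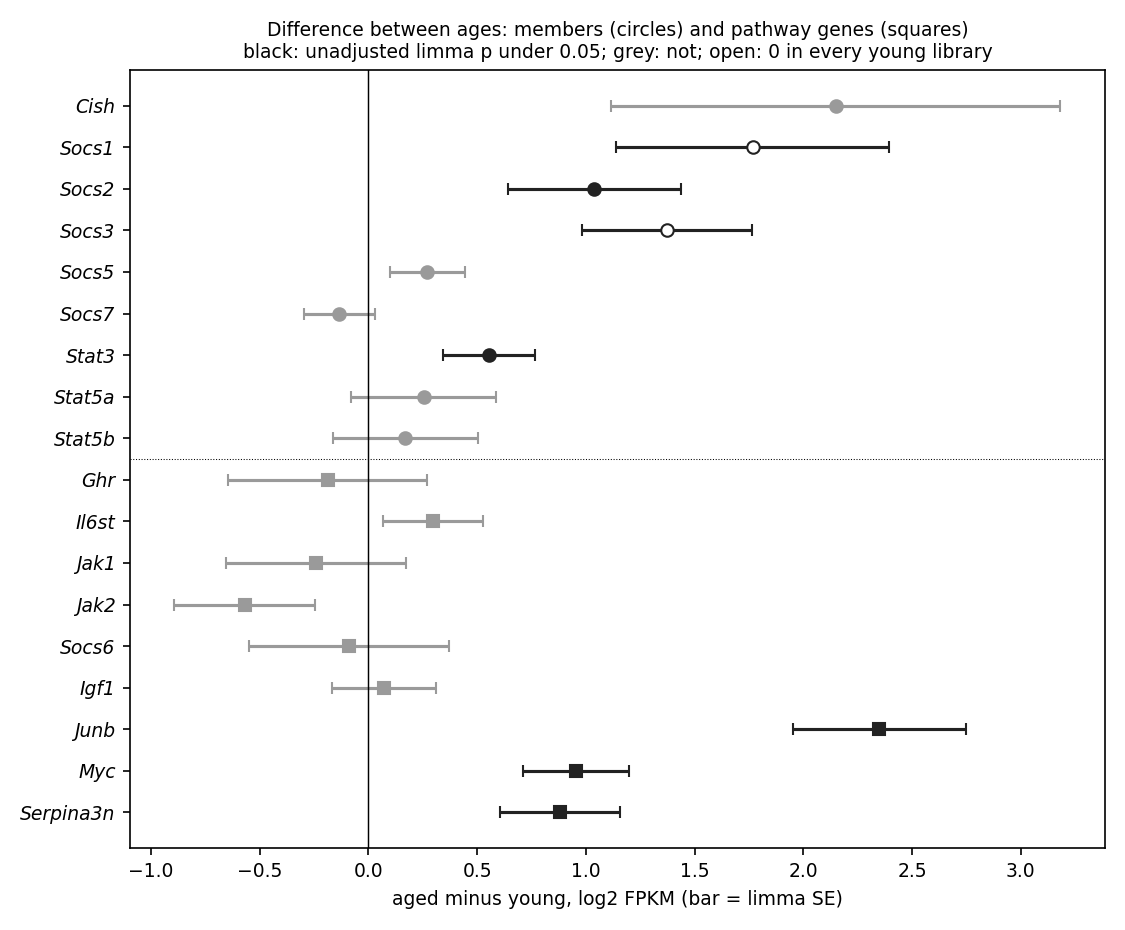
Aged minus young log2 FPKM with limma standard errors for the 9 genes fitted (circles) and 9 other genes of the pathway (squares). Black marks an unadjusted limma p under 0.05. Junb (2.35) and Cish (2.15) had the largest differences drawn, and the standard error of Cish (1.03) was the widest. Socs1 and Socs3 (open circles) were 0 in every young library, which enters as 0. They could only be higher, so nothing is read from their color.

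The rest of the pathway was read from lists of 89 genes, of which 87 were in the table, 49 were tested and 22 were listed at 0 in all libraries. At an unadjusted limma p under 0.05, 3 of the 49 rose (Junb, Myc and Serpina3n), where 6.05% of all genes tested did, so the count is at the background. Of the 49, 0 fell and 0 passed the adjustment. The median difference was 0.17, against 0.07 over all genes tested. With the pairs, 8 of the 49 rose, where 9.50% of all genes tested did, and 1 fell, the kinase gene Jak2, where 1.64% of all genes did. The 5 that the pairs added were Pias1, Pim1, Ccnd1, Cebpd and Cebpb, named after their values were seen.

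Ligands were mostly out of range. Of 19 ligand genes, 14 were listed at 0 in all 10 libraries, among them Gh, Prl, Il6, Lif, Osm and Ifng, and 0 of the 4 tested passed. Of 24 receptor genes 12 were tested and 0 passed by limma, adjusted or not. Ghr, the growth hormone receptor, was at 4.42 ± 0.56 in young and 4.23 ± 0.98 in aged libraries (SD, n = 5 each; limma p = 0.69; exact permutation p = 0.698), with 3.43 and 2.63 in libraries 3. The difference was -0.19, or -0.036 without libraries 3, and turned to 0.21 without aged library 3 alone. Il6st, which encodes gp130, the shared receptor chain of interleukin-6 cytokines, was at 4.14 ± 0.25 and 4.44 ± 0.44 (limma p = 0.222; exact permutation p = 0.23) and was higher in the aged library in 5 of 5 pairs, by 0.30 on average and by 0.32 without the libraries numbered 3.

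Of the 4 kinase genes 3 were tested. Jak3, which serves the receptors of interleukin-2 and its relatives, had a mean FPKM under 1 and is given as values alone, chosen after they were seen. It was 0 to 0.072 in young and 0.12 to 0.44 in aged libraries, all near the floor of 1 FPKM. A 0 stands for an unknown level there, so nothing is read from the listed values not overlapping. For 2.08% of the genes tested, every aged library lay above every young one. Jak1, used by interferon and interleukin-6 receptors, was at 4.69 ± 0.39 in young and 4.45 ± 0.93 in aged libraries (limma p = 0.573; exact permutation p = 0.73), a difference of -0.24 that became 0.0071 without the libraries numbered 3 and 0.16 without aged library 3 alone. Jak2, the kinase of the growth hormone receptor, read 3.10, 3.39, 2.49, 3.22 and 3.30 in the young and 2.62, 2.73, 1.35, 3.11 and 2.84 in the aged group. Each aged library was below the young library of its number. The difference of -0.57 (limma SE 0.324) missed the threshold across groups (limma p = 0.11; exact permutation p = 0.119). It passed the unadjusted threshold with the pairs (limma adjusted p = 0.562), without the libraries numbered 3 (-0.43) and under quantile normalization (-0.57).

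Of 11 genes for PIAS proteins, phosphatases and adaptors that restrain the pathway 9 were tested and 0 passed across groups, with a median difference of 0.05. With the pairs 1 of the 9 rose, Pias1, where 9.50% of all genes tested did. Pias1, a SUMO ligase that binds STATs, differed by 0.40 and was higher in the aged library in 5 of 5 pairs. It also passed the unadjusted threshold without the libraries numbered 3 (0.44), where 13.5% of all genes tested rose. The phosphatase gene Ptpn2 (0.32) did so as well, also named after its values were seen. Of 3 other STAT genes listed, 1 was tested, Stat6. Its difference of 0.34 did not pass (limma p = 0.0735; exact permutation p = 0.0317). Without the libraries numbered 3 it passed the unadjusted threshold (0.39). All 6 SOCS box partners in the table (elongins, cullins and RING proteins) were tested and 0 passed across groups or with the pairs, with a median difference of 0.15.

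Genes that STATs are known to switch on were read in lists of STAT5 and of STAT3 targets, which share Pim1. Whether the lists differ was not tested. Of 9 STAT5 targets 6 were tested and 0 rose or fell by limma, where 6.05% of all genes rose, with a median difference of 0.21. With the pairs 2 of the 6 rose (Pim1 and Ccnd1), against 9.50%. Igf1, the growth factor that growth hormone induces, read 1.57, 1.18, 1.72, 1.42 and 1.61 in the young and 1.77, 1.79, 1.65, 1.91 and 0.72 in the aged group (difference 0.07, limma SE 0.237, p = 0.769; exact permutation p = 0.786), with its lowest value in aged library 5 as for Cish. Of 13 STAT3 targets 9 were tested and 3 rose, where 6.05% of all genes did, and 6 of the 9 with the pairs, against 9.50%. Their median difference was 0.72. Junb, an AP-1 subunit and early response gene, read 1.79, 1.25, 1.93, 1.67 and 1.30 in the young and 4.11, 3.25, 5.26, 4.16 and 2.90 in the aged group. The groups did not overlap, where 2.08% of all genes tested had every aged library above every young one. The difference was 2.35 (limma SE 0.397, p = 0.000129, adjusted p = 0.273; exact permutation p = 0.00794), or 5.09-fold. Myc, a growth-promoting transcription factor, differed by 0.96 (limma SE 0.244, p = 0.00273; exact permutation p = 0.0238), with 0.47 to 1.70 in young and 1.59 to 2.08 in aged libraries. Serpina3n, an acute phase serine protease inhibitor, differed by 0.88 (limma SE 0.276, p = 0.00907; exact permutation p = 0.0317), was at 0 to 0.95 in young and at 0.75 to 1.81 in aged libraries, and lost the call under quantile normalization (0.77). Without the libraries numbered 3 the differences were 2.10 for Junb, 0.87 for Myc, 0.89 for Serpina3n and 0.11 for Igf1. The Igf1 difference was larger still without aged library 5, as given in the last section. Junb also belongs to the early stress list, of which 5 of 10 genes rose.

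Co-variation over libraries was measured for the 7 genes above 0 in all 10 libraries, as the correlation of deviations from the age mean, so that the age difference itself did not enter. The permutation p treats the 10 libraries as unrelated, although same-numbered libraries deviated together over all genes. Where libraries were left out, deviations were taken from the mean of those that remained. Of 21 pairs, 2 had an unadjusted exact permutation p under 0.05 for Pearson's r, 3 for Spearman's rho, and 0 passed the adjustment over the pairs for either. Stat5a and Stat5b had the strongest relation (r = 0.84, exact permutation p = 0.0122, adjusted p = 0.255; rho = 0.68, exact permutation p = 0.0447, adjusted p = 0.313). Without young library 3 and aged library 3, which were the farthest from the Stat5a median, r was 0.42, so the relation rests on those libraries. Over pooled values r was 0.85 (permutation p = 0.002, adjusted p = 0.0424; rho = 0.88, permutation p = 0.0015, adjusted p = 0.0325) and 0.59 without the 2 libraries farthest from the median. Socs7 and Stat5a were the other pair under the threshold for r (r = 0.66, exact permutation p = 0.0459, adjusted p = 0.482; rho = 0.70, exact permutation p = 0.0305, adjusted p = 0.313), with r = 0.58 without young library 3 and aged library 4 and 0.70 without the libraries numbered 3. Socs2 and Stat5b had the most negative value (r = -0.54, exact permutation p = 0.103, adjusted p = 0.654; rho = -0.73, exact permutation p = 0.0308, adjusted p = 0.313), with r = -0.91 without young library 2 and aged library 1 and -0.23 without the libraries numbered 3.

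No relation of Cish with the 6 other genes within age passed the unadjusted threshold (exact permutation). Its r was 0.22 with Socs2 (exact permutation p = 0.575, adjusted p = 0.919; rho = 0.08, permutation p = 0.849), -0.24 with Stat5b (exact permutation p = 0.625; rho = -0.04, permutation p = 0.93) and -0.12 with Stat3 (exact permutation p = 0.876; rho = -0.16, permutation p = 0.696). Without young library 5 and aged library 5 these were 0.078, 0.77 and -0.48, and without the libraries numbered 3 they were 0.29, -0.55 and -0.030, so the sign for Stat5b depended on which libraries were left out. These values are for Cish-005. With Cish-001 in its place r was 0.48 with Socs2 (exact permutation p = 0.124; rho = 0.62, permutation p = 0.0529). It was -0.64 with Stat5b (exact permutation p = 0.237; rho = -0.53, permutation p = 0.12) and 0.18 with Stat3 (exact permutation p = 0.849; rho = 0.31, permutation p = 0.477). The sign for Stat3 therefore depended on the row, as did that for Stat5a (0.16 and -0.29) and the size of rho with Socs2. A p that misses the threshold does not show that such genes vary independently, and 10 libraries limit what can be seen.

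**Figure D5:**
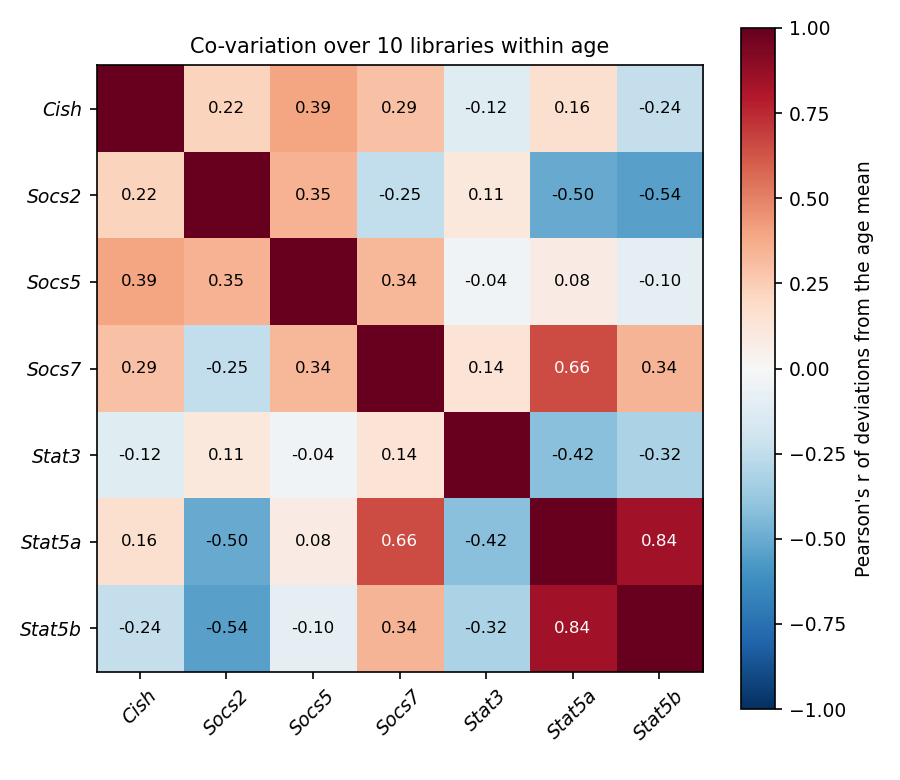
Pearson's r of deviations from the age mean over 10 libraries for the 21 pairs of the 7 genes above 0 in all libraries (Cish as Cish-005), from -1 (blue) to 1 (red). Stat5a and Stat5b have the highest value (0.84) and Socs2 and Stat5b the lowest (-0.54).

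The genes most like Cish (row Cish-005) over the 10 libraries, among 8215 genes above 0 in all of them, were Snx32 (r = 0.95), Gdf11 (0.94), Gm17041 (0.92), Tmem184b (0.91) and Tgfb2 (0.91). Of these, Gm17041 is the antisense gene inside Cish. With Cish-001 the same genes had r of 0.81, 0.76, 0.99, 0.73 and 0.73. On deviations from the age mean they were Gpr125 (r = 0.97), Tspan9 (0.97), Jph2 (0.96), Rpia (0.96) and Aurka (0.95), whose aged minus young differences were all below 0 (-0.37 to -0.12) and whose r with Cish-001 was 0.79 to 0.91. Each gene of both rankings was, like Cish, lowest in aged library 5 within the aged group. Aurka, for example, was at 0.93 there and at 2.51 to 3.62 in the other aged libraries. These r were not taken again without that library. The genes most like Stat3 on deviations from the age mean were Utp23 (r = 0.96), C1qb (0.94), Ifi30 (0.93), D19Bwg1357e (0.92) and H2-Aa (0.92). C1qb, a complement subunit, is one of the macrophage markers, and H2-Aa encodes a chain of MHC class II. C1qb was 1.56 higher and H2-Aa 1.63 higher in aged libraries. These are ranks over the same 10 libraries and carry no test.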

How the data were processed

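Poly-A RNA of gastrocnemius from 5 young and 5 aged mice was sequenced by the authors in paired-end reads and mapped to mm10 with TopHat2. The authors computed FPKM and deposited log2 values per transcript without pooling replicates. The methods describe RefSeq genes, whereas the deposited rows carry Ensembl and Vega transcript names, and the sources differ on the sequencer. The kit marks no strand. The program that counted reads is not given in the sources used here.

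The genes and lists were chosen with earlier results of these data known, so no count over them is independent evidence. Values were used as deposited. limma 3.58.1 (R 4.3.3; lmFit and eBayes, two-sided) was fitted to all 38059 rows with a mean FPKM of at least 1, values listed at 0 counted as 0 for the filter, with Benjamini-Hochberg adjustment over those rows. Single genes were also compared by two-sided exact permutation over 252 labellings, and correlations over 14400 orders within age, or 100000 permutations of pooled values. Tables and tests were made in Python 3.11.15 (scipy 1.17.1, pandas 2.3.3, numpy 2.4.6) and plots with matplotlib 3.10.9. The fit was tested on simulated data.

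Young and aged libraries share the numbers 1 to 5, though the mice differ. Deviations of same-numbered libraries correlated at 0.131, 0.332, 0.695, 0.390 and 0.208, all above 0.1, so a fit with the number as a block is given where it changed a call. Whole reads were recovered from the steps between values and transcript lengths in GENCODE, with 71.7% to 74.0% of genes with a single transcript giving whole reads within 0.02, and describe precision only. Depths were 19886360 to 34554353 reads, and 1 FPKM on 1 kb stood for 19.9 to 34.6 reads, below which changes were not detectable. Named beside the 10 genes are pathway genes with an unadjusted limma p under 0.05, 6 pathway genes named whatever their values (Ghr, Il6st, Jak1, Jak2, Socs6 and Igf1) and the 5 genes most correlated with Cish or Stat3. A pathway gene is not reported here and was left out of the pathway counts, though not of the fit. Alternatives changed the pseudocount, filter, scaling, row, prior, pairing and libraries.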

Additional observations from a re-analysis of the deposited data

Results flagged for a closer look

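Of 38 groups of 5 libraries looked at (19 genes at 2 ages), 4 held a library far from the others by Dixon's criterion at the 95% level, and chance flags about 1 in 20 groups. Socs7 was at 2.99 in young library 3, with the nearest young library at 3.41. Ghr was at 3.43 in young library 3, with the nearest at 4.51. Jak2 was at 1.35 in aged library 3, with the nearest at 2.62. Igf1 was at 0.72 in aged library 5, with the nearest at 1.65. Of the 4, 3 were in libraries numbered 3, in which short rows were also low.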

How the results depend on the processing

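Leaving out both libraries numbered 5 and taking the longest protein-coding row were chosen after seeing the data. Over the alternatives run on all genes, the 7 genes above 0 in all libraries had 0 lower calls and 0 to 3 higher ones. Of the 7, 0 passed under quantile normalization, where 3.08% of all genes rose. With Socs1 and Socs3, which could only be higher, the 10 genes had 2 to 5 higher calls, 2 among genes above 0 in all libraries (Socs2 and Stat3) and 2 under quantile normalization (Socs1 and Socs3), and nothing is read from these counts. Pathway genes that rose numbered 8 with the replicate block (9.50% of all genes rose), 6 of 65 with no filter on low values (6.51%), 7 without both libraries numbered 3 (13.5%), 1 by the study's criteria (a difference over 1 and an unadjusted equal-variance p under 0.05; 0.846%) and 3 to 7 with each library left out (3.72% to 12.5%). The highest, 7, came without young library 3 (6.73%) and without aged library 3 (12.5%). Pathway genes that fell numbered 1 with the replicate block (1.64% of all genes fell), 1 without the libraries numbered 3 (1.38%) and 1 under quantile normalization (1.90%). Over pooled values, 1 pair of genes passed the adjustment, against 0 within age. The cause of these changes was not tested. The difference of Stat5b turned to -0.13 without both libraries numbered 5 (-0.062 to 0.44 with each library left out). That of Jak1 turned to 0.0071 and that of Socs6 to 0.16 without both libraries numbered 3. With each library left out, the differences ran from -0.45 to 0.21 for Ghr, -0.46 to 0.16 for Jak1, -0.34 to 0.35 for Socs6 and -0.014 to 0.28 for Igf1. The 0.28 for Igf1 came without aged library 5. The pairs changed no call among the 10 genes other than that of Cish. No paired co-variation was computed because 5 paired differences are too few for a correlation. Scaling moved the median difference of all genes by less than 0.1 on the log2 scale (-0.06 and -0.05), and levels up to 1 FPKM could not be compared.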
